A study of Mus musculus with 12 samples.

Results

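TGF beta and BMP signalling was followed through 40 genes, chosen by symbol from a list of ligands, latent binding proteins, receptors, Smads, inhibitors and Id genes. All 40 are among the 46983 gene symbols of each deposited table. A gene was tested in a cell fraction when its mean normalized read count there was 10 or more. That left 36 of the 40 in the cardiomyocyte fraction (CM), where Ltbp2, Inhba, Gdf10 and Mstn fell below the limit. It left 38 in the fraction of the remaining heart cells (NonCM), where Bmp5 and Mstn did. All genes tested numbered 11944 in CM and 13271 in NonCM.

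The libraries are bulk RNA-seq of hearts from BL6/C57 mice, separated into those fractions, with 3 libraries in each of 4 groups and 3 hearts stated per condition. Control mice were MCM/+, and the other mice were MCM/+ with floxed alleles of Wls (Wls fl/fl), the gene for the carrier protein that brings Wnt ligands to the cell surface. MCM is commonly MerCreMer, a Cre recombinase that acts after tamoxifen. Both genotypes carry it, so no group lacks the recombinase, and the promoter that drives it is not given in the sources used here. Every mouse was given tamoxifen in 3 doses over postnatal days 1 to 3, underwent myocardial infarction on day 2 and was sampled 2 weeks later. The sample labels nevertheless call the cells adult. The comparison asks how the signalling genes of each fraction differ when Wls is floxed in an injured neonatal heart.

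Recovered reads ranged from 5171769 to 9775856 per library in CM. In NonCM they ranged from 8608352 to 10281214 except in control replicate 1, which held 1160146, so that 1 read there equals a normalized value of 5.54. In each group, replicate 3 lay close to a weighted mean of replicates 1 and 2, with residuals of 1.01 to 1.05 times the counting variance, against 1.14 to 2 for replicates 1 and 2 tested the same way. Results are therefore given with and without replicate 3. The p-values rest on the spread among 3 libraries a group, which may in part be technical. A library close to a mean of replicates 1 and 2 narrows that spread. The SDs and p-values with all 3 libraries may therefore be too small. Whether replicate 3 is a separate heart was not tested. Wls itself read 218 in CM control against 80.9 in CM Wls fl/fl libraries on average (log2 change −1.45, limma adjusted p = 0.00389), and 403 and 332 in NonCM (−0.28, limma adjusted p = 0.0831). The fractions were enriched, not pure. The 12 cardiomyocyte markers took 10.7 ± 0.0721% (SD, n = 3) of normalized reads in CM control and 7.27 ± 0.327% in NonCM control libraries. The 10 fibroblast markers took 0.11 ± 0.00582% and 0.935 ± 0.0108%.

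TGF beta is secreted in a latent form, folded into its own propeptide and usually tied to a latent TGF beta binding protein in the matrix, from which integrins, proteases or thrombospondin release it. The free ligand joins type II and type I receptor kinases, which phosphorylate Smad2 and Smad3. BMPs act through their own receptors on Smad1, Smad5 and Smad9. Both branches share Smad4, Smad6 and Smad7 inhibit them, and the Id genes are classic targets of the BMP branch. In the injured heart TGF beta is best known for driving fibroblasts to make collagen and other matrix.

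In NonCM, 3 members rose in Wls fl/fl hearts and none fell by limma. They were the ligand gene Tgfb3 and the latent binding protein genes Ltbp3 and Ltbp4. The type I receptors, the Smads and the Id genes had no call in either fraction by this test. In CM no member was called in either direction. Among all genes tested in NonCM, limma called 4.51% (2.47% higher and 2.03% lower), against 3 of 38 members, all 3 higher. The count of 3 is small, and whether it exceeds the share of all genes was not tested. In CM it called 0.0921% of all genes (0.0670% higher and 0.0251% lower), against 0 of 36 members.

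Across the 38 members tested in NonCM, the log2 change (Wls fl/fl minus control, on log2 of the normalized read count plus 1) lay above 0 for 27, or 71.1%, where 53.2% of all genes lay above 0. The median change was 0.12 against 0.02 over all genes. At an unadjusted p under 0.05 there were 13 members higher and 2 lower, where 10.5% of all genes were higher and 8.83% lower. The groups did not overlap, with every Wls fl/fl library above every control library, for 14 members, and lay the other way for 3. Among all genes those shares were 13.9% and 12.6%. In CM the 36 members split evenly, 18 above and 18 below 0 (50.1% of all genes lay above), with a median of 0.00 and 18 changes within 0.1 of 0.

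**Figure D1:**
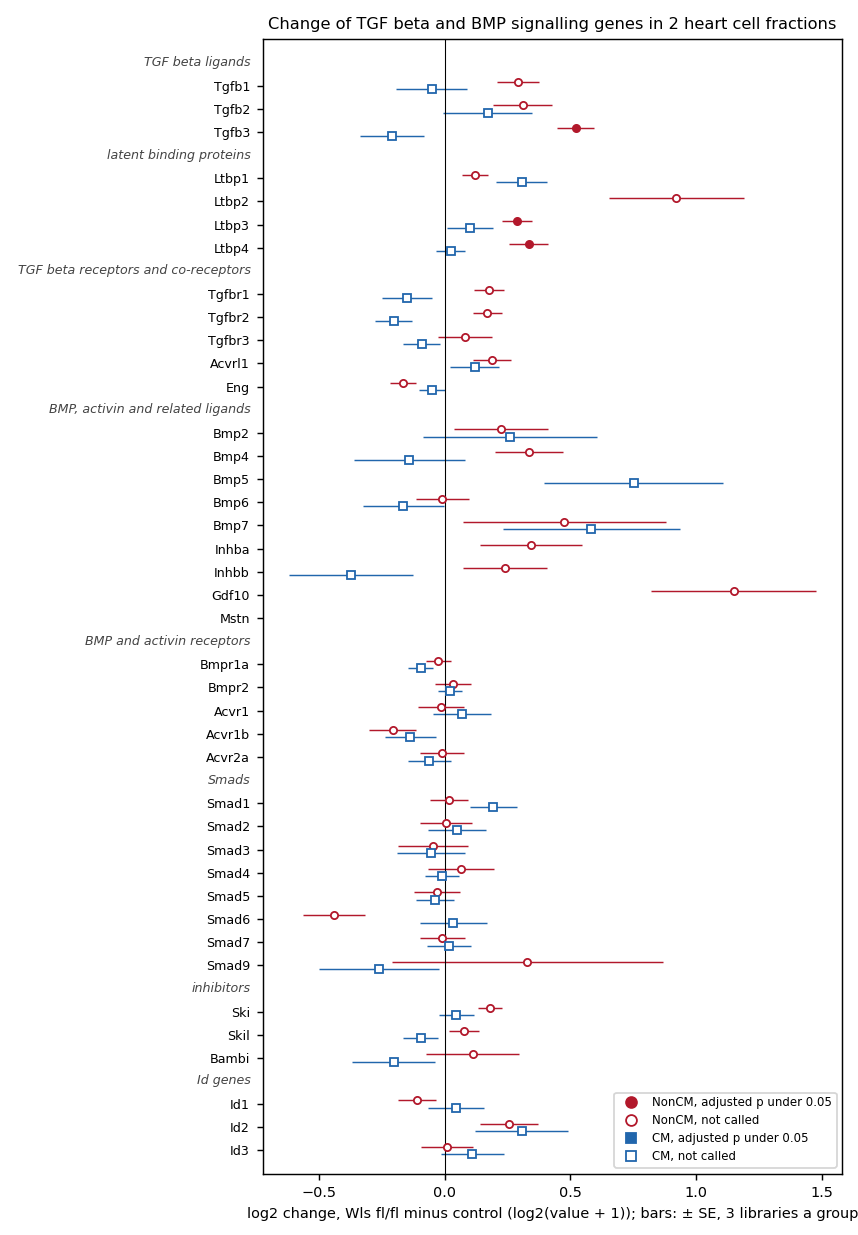
The log2 change of each member (Wls fl/fl minus control) is plotted on the horizontal axis by role for NonCM (red circles) and CM (blue squares), with bars of ± 1 SE over 3 libraries a group. Filled red points mark Tgfb3, Ltbp3 and Ltbp4, the members with a limma adjusted p under 0.05, and members below the expression limit in a fraction have no point there.

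The ligand genes came first in NonCM. Tgfb3 encodes the third TGF beta ligand and lies on GRCm38 at chr12:86056745-86079041, minus strand. Its normalized read count was 232.8, 222.7 and 227.4 in the NonCM controls against 309, 340.6 and 332.6 in the Wls fl/fl libraries (here and below in the order of replicates 1 to 3). All 3 Wls fl/fl libraries were higher than all 3 controls, and the lowest of them stood well clear of the highest control. The means were 228 ± 5.07 and 327 ± 16.4 (SD, n = 3), a log2 change of 0.52 (SE 0.07, limma adjusted p = 0.00659). Leaving out Wls fl/fl replicate 2 ended the limma call (adjusted p = 0.0592), as did leaving out its replicate 3 (adjusted p = 0.0742). Without replicate 3 of both genotypes the change was 0.51 by limma (adjusted p = 0.336) and 0.52 by edgeR (adjusted p = 0.0974). The Tgfb3 locus overlaps Ttll5 on the other strand, and whether the counting used strand is not stated. Ttll5 read 109 and 104 in NonCM (−0.07, limma adjusted p = 0.792).

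Tgfb1, the ligand most studied in fibrosis, read 227.3, 248.6 and 275.2 in NonCM control against 309.7, 309.4 and 298.2 in Wls fl/fl libraries. The groups did not overlap, but the difference of 0.29 (SE 0.08) missed the limma threshold (adjusted p = 0.0913) and passed by edgeR (0.24, adjusted p = 0.0478). Tgfb2, a ligand with a known role in the developing heart, read 188.5, 154.1 and 208.6 against 207.3, 238.2 and 234.7. Control replicate 3 lay just above Wls fl/fl replicate 1, and the difference of 0.31 (SE 0.12) was not called by limma (adjusted p = 0.192) or edgeR (adjusted p = 0.0859). The share of the 3 ligand transcripts that was Tgfb3, per kilobase of exon, was 45.3 ± 2.39% in NonCM control against 49.2 ± 0.689% in Wls fl/fl libraries. That difference gave an exact two-sided permutation p of 0.1, the smallest that 3 against 3 libraries allow (adjusted over 14 shares, 0.467).

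In CM the ligands showed no call. Tgfb3 read 74.6, 77.7 and 88.5 in control against 70.5, 74 and 63.4 in Wls fl/fl libraries, lower in each Wls fl/fl library than in any control (−0.21, SE 0.13, limma adjusted p = 0.684). Tgfb1 read 132.8, 102.4 and 119.7 against 108.1, 97.95 and 137.9 (−0.05, limma adjusted p = 0.946). Tgfb2 read 123.6, 74.04 and 108 against 129.2, 94.82 and 115.9 (0.17, limma adjusted p = 0.818). The CM groups overlapped for Tgfb1 and Tgfb2.

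**Figure D2:**
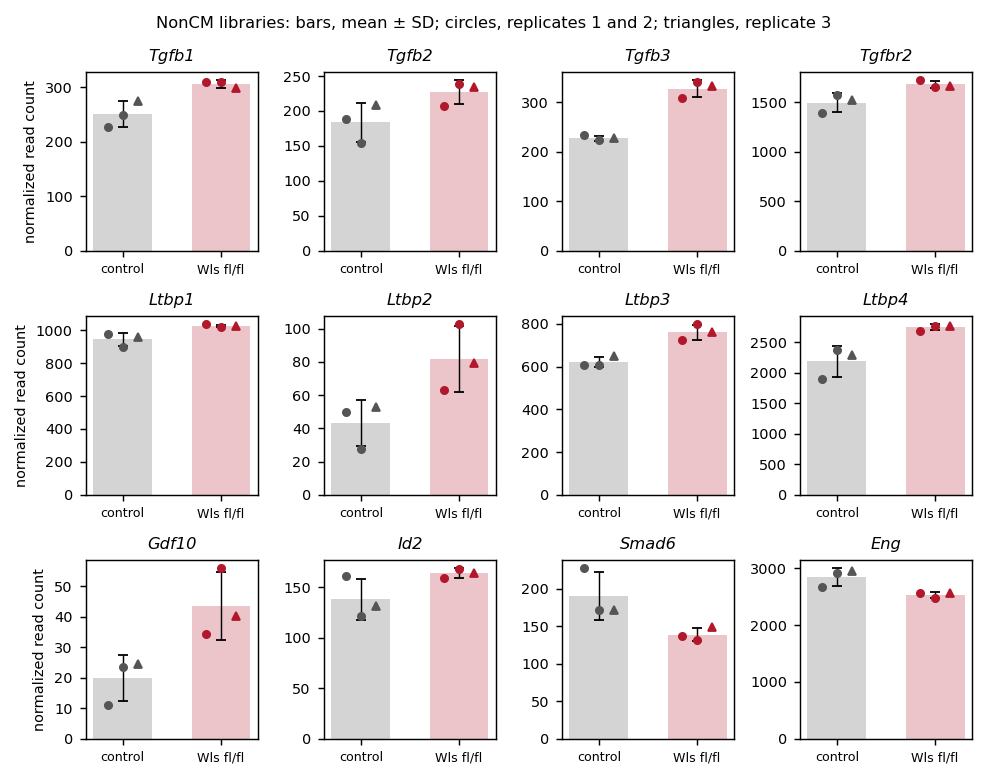
Normalized read counts (vertical axes, each from 0) of 12 members in the NonCM libraries, with bars for the mean, whiskers for ± 1 SD over 3 libraries, circles for replicates 1 and 2 and triangles for replicate 3. Tgfb3, Ltbp3 and Ltbp4 separate by genotype, and Smad6 and Eng lie lower in the Wls fl/fl libraries.

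The latent TGF beta binding proteins anchor the latent ligand to fibrillin and other matrix proteins, and Ltbp2, unlike the others, does not bind TGF beta. In NonCM each of the 4 genes was higher in every Wls fl/fl library than in any control library, which held for 13.9% of all genes, and 2 of the 4 passed by limma, where 2.47% of all genes were called higher. Their promoters are printed to show the sequence at the start of the genes that include 2 of the 3 members called. RefSeq promoter sequences (build GRCm38.p6, from 250 bases before to 50 bases after the start) were matched for 29 of the 40 members, among them 3 of these 4. For a member with several promoter entries only the first was used. Ltbp4 has 3 entries, so its other annotated promoters were not searched, while Ltbp2 and Ltbp3 have 1 each. In the lines that follow, capitals mark CAGAC, a Smad-binding motif, or its reverse complement GTCTG, and TGANTCA, the motif of AP-1.

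Ltbp2, chr12:84876442-84876741, minus strand: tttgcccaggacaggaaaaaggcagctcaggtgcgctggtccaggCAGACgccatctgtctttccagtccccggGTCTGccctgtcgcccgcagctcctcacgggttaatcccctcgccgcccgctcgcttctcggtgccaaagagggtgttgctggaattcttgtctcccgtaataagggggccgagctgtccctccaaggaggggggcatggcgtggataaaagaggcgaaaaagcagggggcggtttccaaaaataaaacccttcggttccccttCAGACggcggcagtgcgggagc
Ltbp3, chr19:5740650-5740949, plus strand: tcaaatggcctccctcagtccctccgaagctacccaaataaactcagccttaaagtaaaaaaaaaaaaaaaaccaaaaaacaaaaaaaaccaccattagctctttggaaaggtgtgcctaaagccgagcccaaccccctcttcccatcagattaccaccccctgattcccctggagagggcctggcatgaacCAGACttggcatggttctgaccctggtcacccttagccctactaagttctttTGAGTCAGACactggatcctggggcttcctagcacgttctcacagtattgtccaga
Ltbp4, chr7:27337563-27337862, minus strand: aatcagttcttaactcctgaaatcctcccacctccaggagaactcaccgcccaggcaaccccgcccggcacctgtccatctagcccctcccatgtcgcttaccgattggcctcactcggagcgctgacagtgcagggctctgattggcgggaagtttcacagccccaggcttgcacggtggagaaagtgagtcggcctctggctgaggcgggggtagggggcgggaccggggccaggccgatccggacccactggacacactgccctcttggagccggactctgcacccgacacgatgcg

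Searched on both strands, CAGAC occurs 3 times in the Ltbp2 window, 2 times in that of Ltbp3 and 0 times in that of Ltbp4. Of 32851 promoters of the same length, 49.6% hold it, and of the 29 member promoters 12 do (41.4%). TGANTCA occurs 1 time, in the Ltbp3 window, where it overlaps a CAGAC, and 7.81% of all promoters hold it. The motif GGCGCC, which BMP-activated Smads can bind, occurs in none of these 3 windows, in 11.9% of all promoters and in 9 of the 29 member promoters (31%). GC content was 61% for Ltbp2, 48% for Ltbp3 and 64.3% for Ltbp4, against a median of 52.7%. These are letter matches in a fixed window, and binding was not measured.

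Ltbp3 (GRCm38 chr19:5740904-5758532, plus strand) read 609.8, 609.4 and 650.3 in NonCM control against 726.8, 797.7 and 760.1 in Wls fl/fl libraries. Every Wls fl/fl library was higher, and the means were 623 ± 23.5 and 761.5 ± 35.5 (0.29, SE 0.06, limma adjusted p = 0.0305). With 1 library left out the change ran from 0.255 to 0.322, but the call often did not hold. It ended when control replicate 2 or 3 was left out (limma adjusted p = 0.053 and 0.0794). Leaving out Wls fl/fl replicate 1, 2 or 3 gave 0.0524, 0.169 and 0.172. It was also lost under upper-quartile scaling (0.24, adjusted p = 0.0613). Without replicate 3 of both genotypes the change was 0.32 by limma (adjusted p = 0.45) and 0.31 by edgeR (adjusted p = 0.234).

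Ltbp4 (GRCm38 chr7:27305136-27337692, minus strand), which also helps assemble elastic fibres, read 1896, 2374 and 2289 in NonCM control against 2687, 2776 and 2770 in Wls fl/fl libraries. The shallow control replicate 1 was the lowest of the 6, and the other controls also lay below each Wls fl/fl library. The change was 0.33 (SE 0.08, limma adjusted p = 0.0478). Limma adjusted p rose to 0.109 without control replicate 3 and to 0.0608 under TMM scaling. Leaving out Wls fl/fl replicate 1, 2 or 3 raised it to 0.112, 0.195 and 0.216. With replicate 3 of both genotypes left out it was 0.484, with a change of 0.36, and edgeR gave 0.32 (adjusted p = 0.282). No annotated gene overlaps Ltbp4.

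Ltbp2 had the widest difference of the 4 genes in NonCM and few reads. It read 49.89, 27.46 and 52.87 in NonCM control against 62.95, 102.5 and 79.22 in Wls fl/fl libraries, and control replicate 1 rests on 9 reads. The groups did not overlap, and the difference of 0.92 (SE 0.27) was not called by limma (adjusted p = 0.0931) but was by edgeR (0.98, adjusted p = 0.0135) and by DESeq2 (0.97, adjusted p = 0.0263). Ltbp1 read 975.7, 899.2 and 955.9 in NonCM control against 1035, 1018 and 1024 in the Wls fl/fl libraries (0.12, SE 0.05, limma adjusted p = 0.245). In CM, Ltbp1 read 476.2, 408.5 and 411.6 in control against 621.5, 455.4 and 535.3 in Wls fl/fl libraries. The ranges overlapped, and the difference of 0.31 (SE 0.10) had an unadjusted limma p of 0.0114 and an adjusted p of 0.446. Ltbp3 and Ltbp4 differed by 0.10 and 0.02 in CM.

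Receptors of the TGF beta branch differed little in NonCM. Tgfbr1 and Tgfbr2, the type I and type II TGF beta receptors, and Acvrl1 (ALK1), a type I receptor of endothelium, were higher in each Wls fl/fl library than in any control. Their differences were 0.18, 0.17 and 0.19, and none was called by limma (adjusted p = 0.151, 0.146 and 0.204) or edgeR (adjusted p = 0.0987, 0.124 and 0.161). Eng (endoglin), a co-receptor of endothelial cells, read 2672, 2918 and 2950 in NonCM control against 2558, 2477 and 2568 in Wls fl/fl libraries. It was lower in each Wls fl/fl library (−0.17, SE 0.05), missed the limma threshold (adjusted p = 0.113) and passed by edgeR (−0.19, adjusted p = 0.0349). The summed share of the 10 endothelial markers was 0.264 ± 0.00919% in NonCM control against 0.24 ± 0.000901% in Wls fl/fl libraries, and its part in the Eng value was not tested. Tgfbr3 (betaglycan) differed by 0.08 and its groups overlapped.

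In CM, Tgfbr2 read 422, 507.2 and 481.7 in control against 407.6, 407.4 and 406.5 in Wls fl/fl libraries. Each Wls fl/fl library was lower, and the difference of −0.20 (SE 0.07) had an unadjusted limma p of 0.0176 and an adjusted p of 0.468. Tgfbr1 differed by −0.15, Tgfbr3 by −0.09, Acvrl1 by 0.12 and Eng by −0.05. Over the 36 CM members, 1 was higher and 1 lower at an unadjusted p under 0.05 (Ltbp1 and Tgfbr2), where 4.91% of all genes were higher and 3.83% lower. EdgeR called 0 of the 36 (smallest adjusted p = 0.427; 0.10% of all genes), and DESeq2 called 0 of 30 members for which it gave an adjusted p (0.238% of all genes). With replicate 3 of both genotypes left out, limma and edgeR each called 0 CM members and 0.0167% of all genes. In 6 members the CM groups did not overlap, 2 higher (Smad1 and Bmp7) and 4 lower (Tgfb3, Tgfbr2, Bmpr1a and Skil), where 7.97% of all genes were higher and 7.05% lower in this sense, 15.0% together.

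None of the BMP, activin and related ligand genes was called by limma. Gdf10 (BMP3b), a secreted relative of Bmp3, read 11.09, 23.64 and 24.62 in NonCM control against 34.34, 55.89 and 40.36 in Wls fl/fl libraries. All Wls fl/fl libraries were higher, control replicate 1 rests on 2 reads, and the difference of 1.15 (SE 0.33, limma adjusted p = 0.0874) was called by edgeR (0.90, adjusted p = 0.0233). Bmp4 read 138.6, 163.2 and 110.8 against 173, 172.3 and 169.7 (0.34, SE 0.14, limma adjusted p = 0.212). The Wls fl/fl libraries were also higher for Inhba, which encodes the activin A subunit (0.35, limma adjusted p = 0.402). Bmp6, an endothelial BMP and regulator of iron balance, differed by −0.01. Bmp2, Bmp7 and Inhbb differed by 0.22, 0.48 and 0.24 with overlapping groups.

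In CM the smallest p among these ligands was that of Bmp5, which read 9.2, 4.94 and 10.7 in control against 10.6, 16.7 and 15.5 in Wls fl/fl libraries. The groups overlapped, with 4 to 24 reads a library (0.75, SE 0.36, limma adjusted p = 0.579). Mstn (myostatin), a brake on muscle growth, had at most 4 reads in any library of either fraction. No difference in it was detectable at this depth.

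Changes of the 5 BMP and activin receptor genes ran from −0.21 to 0.03 in NonCM, and none was called by limma or edgeR. Acvr1b (ALK4), the type I activin receptor, was the lowest, at 221.7, 190.7 and 207.1 in control against 183.1, 187.6 and 165.2 in Wls fl/fl libraries. Each Wls fl/fl library lay below each control (−0.21, SE 0.09, limma adjusted p = 0.267). Bmpr1a, a type I BMP receptor, Bmpr2, the type II BMP receptor, Acvr1 (ALK2) and Acvr2a differed by −0.03, 0.03, −0.01 and −0.01. In CM, Bmpr1a read 1052, 1022 and 1004 in control against 926.9, 981.6 and 972.2 in Wls fl/fl libraries, without overlap (−0.10, SE 0.05, limma adjusted p = 0.644).

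Smad6 had the smallest p of the 8 Smads in NonCM. Smad6 is an inhibitory Smad, itself a BMP target, that restrains BMP receptors. It read 227.3, 171.6 and 172.4 in control against 137.4, 131.1 and 148.7 in Wls fl/fl libraries. All Wls fl/fl libraries were lower, and control replicate 1, with 41 reads, was the highest. The difference was −0.44 (SE 0.12, limma adjusted p = 0.085). EdgeR called it (−0.36, adjusted p = 0.0334), and DESeq2 did not (−0.38, adjusted p = 0.194). Leaving out replicate 3 in both groups gave −0.55 by limma (adjusted p = 0.464) and −0.46 by edgeR (adjusted p = 0.252).

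No receptor-activated Smad was called in NonCM. Smad2 and Smad3 of the TGF beta branch differed by 0.01 and −0.05, Smad1 and Smad5 of the BMP branch by 0.02 and −0.03, and their groups overlapped. Smad4 and the inhibitory Smad7 differed by 0.06 and −0.01. Smad9 differed by 0.33 by limma and by −0.29 by edgeR, with 1 read in NonCM control replicate 1. In CM, Smad1 had the smallest p, at 125.7, 137 and 124.6 in control against 156.2, 142.8 and 144.3 in Wls fl/fl libraries. The Wls fl/fl libraries were higher (0.19, SE 0.09, limma adjusted p = 0.594). Smad activity depends on phosphorylation, which these libraries do not measure.

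Of the inhibitors, Ski, a nuclear repressor of Smad complexes, read 1391, 1383 and 1411 in NonCM control against 1636, 1521 and 1581 in Wls fl/fl libraries. The groups were apart, the difference was small (0.18, SE 0.05), and it missed the threshold by limma (adjusted p = 0.0727) and edgeR (adjusted p = 0.051). Its relative Skil (SnoN) was also higher in each Wls fl/fl library (0.08, limma adjusted p = 0.529). Bambi, a decoy receptor without a kinase, differed by 0.11 by limma and −0.06 by edgeR, with 10 reads in NonCM control replicate 1. In CM, Skil read 269.8, 278.9 and 272.5 in control against 250.2, 255.3 and 263.5 in Wls fl/fl libraries, lower in each (−0.09, SE 0.07, limma adjusted p = 0.73).

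The Id genes encode partners that block other helix-loop-helix transcription factors. Id2 read 160.8, 121.3 and 131.8 in NonCM control against 159, 168.3 and 164.4 in Wls fl/fl libraries. Control replicate 1 lay within the Wls fl/fl range and the other controls below it, giving 0.26 (SE 0.12) by limma (adjusted p = 0.269) and 0.33 by edgeR, which called it (adjusted p = 0.0403). Id1 and Id3 differed by −0.11 and 0.01, and neither was called by limma (adjusted p = 0.47 and 0.972) or edgeR (adjusted p = 0.212 and 0.676). In CM, Id2 read 37.81, 29.62 and 37.95 in control against 49.34, 36.47 and 45.31 in Wls fl/fl libraries, with overlap (0.31, SE 0.19, limma adjusted p = 0.677). Id1 differed by 0.04 in CM and Id3 by 0.11.

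By edgeR on recovered reads 9 NonCM members were called, 7 higher (Tgfb1, Tgfb3, Ltbp2, Ltbp3, Ltbp4, Gdf10 and Id2) and 2 lower (Eng and Smad6), where edgeR called 10.9% of all genes (5.73% higher and 5.16% lower). Of 34 members for which DESeq2 gave an adjusted p it called 4, Tgfb3, Ltbp2, Ltbp3 and Ltbp4, all higher, where it called 6.02% of all such genes (3.20% higher and 2.82% lower). Limma-voom called 9 members, where it called 11.1% of all genes. The authors' deposited table calls the same 4, with adjusted p of 0.00127, 0.0252, 0.035 and 0.00227. Limma was also run leaving out 1 library at a time. With control replicate 1, 2 or 3 left out, 9, 2 and 1 members were called, and 12.2%, 5.55% and 0.897% of all genes. Leaving out Wls fl/fl replicate 1, 2 or 3 gave 1, 0 and 0 members and 2.52%, 0.761% and 0.550% of all genes. When replicate 3 of both genotypes was left out, limma called 0 of the 38 members and 0 of all genes. At an unadjusted p under 0.05 that fit had 9 of the 38 members and 9.29% of all genes. On the same libraries edgeR called 0 members and 27 genes in all (0.203%, of which 0.173% higher and 0.0301% lower).

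Markers of other cell types moved with genotype in NonCM. The summed share of the 10 fibroblast markers was 0.924 to 0.946% in control against 1.36 to 1.47% in Wls fl/fl libraries, and 8 of the 10 rose by limma (median change 0.56). The 12 cardiomyocyte markers took 7.02 to 7.64% and 6.05 to 6.25%, with 9 of 12 lower. Macrophage markers took 0.132 to 0.167% and 0.187 to 0.203%, with 2 of 10 higher, and the 4 epicardial markers took 0.00531 to 0.0105% and 0.0119 to 0.0128%, with 1 of 4 higher. No marker of these lists was at 0 in NonCM. In bulk libraries a larger number of cells of a type and more RNA per cell cannot be told apart, and the part of these marker shares in the changes of Tgfb3, Ltbp3 and Ltbp4 was not tested. In CM the fibroblast share was 0.104 to 0.116% in control against 0.106 to 0.134% in Wls fl/fl libraries, and that of cardiomyocyte markers was 10.6 to 10.7% and 10.4 to 11.5%.

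Control hearts showed where the members are expressed. The tables were scaled apart, so recovered reads of all 12 libraries were fitted together with edgeR, and 39 members were tested among 13395 genes. NonCM control differed from CM control for 29 of them, 27 higher in NonCM and 2 lower, where 57.1% of all genes differed (28.9% higher and 28.2% lower). The median log2 difference over the members was 0.585, against 0.00 over all genes. The count was 25 without replicate 3 of all 4 groups, where 42.0% of all genes differed. Hearts gave both fractions, but which libraries share a heart is not stated, so this was not modelled.

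The widest differences toward NonCM were those of ligand genes. Bmp2 was higher by 2.49 on the log2 scale (edgeR adjusted p = 2.7e-08), Inhba by 2.33 (2.3e-05) and Bmp4 by 2.19 (3.4e-09). In CM control Bmp2 rests on 6, 9 and 11 reads. Inhba, below the expression limit in CM, rests on 4, 3 and 3 reads there. Gdf10 (1.97) and the latent binding protein gene Ltbp2 (1.93), also below that limit in CM, came next. Ltbp4 was higher by 1.55, Id2 by 1.54, Tgfbr2 by 1.36 and Tgfb3 by 1.15. Bmpr1a and Acvr2a were higher in CM, with NonCM minus CM of −0.37 and −0.38 (edgeR adjusted p = 6.0e-06 and 9.6e-04). No call was made for Smad2, Smad4, Smad7 or Id1, with differences of 0.15, 0.10, 0.13 and 0.12. Per kilobase of exon, Eng had the highest mean level of the members in both fractions of control hearts. It stood at 97.4 ± 4.17 RPKM (recovered reads scaled to TMM-scaled library total and exon length) in NonCM and 48.5 ± 1.11 in CM (SD, n = 3). In NonCM it was followed by Id1 at 47.9 ± 3.2, Ltbp4 at 46.8 ± 5 and Id3 at 43. The ranges of Id1, Ltbp4 and Id3 overlapped in NonCM, as did those of Eng and Id1 in CM, so the order within each of these sets is not fixed. Among the ligands in NonCM control, Bmp6 stood at 11, Tgfb3 at 9.32, Bmp4 at 8.48, Tgfb1 at 6.88 and Tgfb2 at 4.4.

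**Figure D3:**
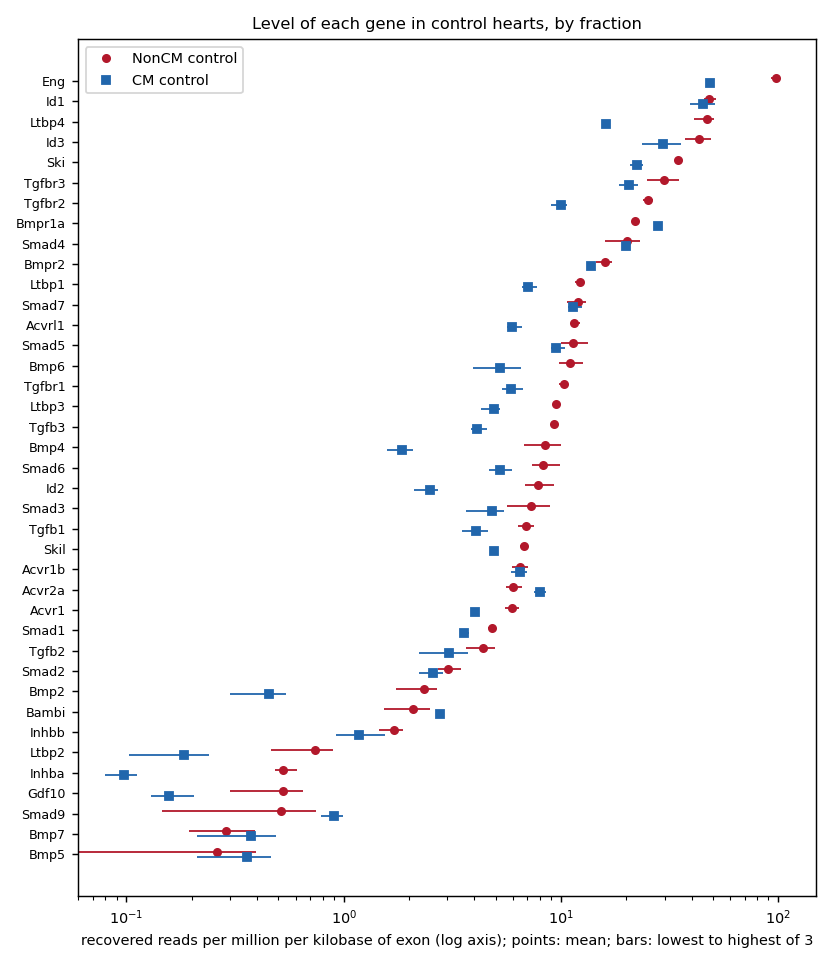
Level of the members in control libraries, in RPKM of recovered reads on a log axis, with points for the mean and bars from the lowest to the highest of 3 libraries, NonCM as red circles and CM as blue squares. Eng has the highest mean in both fractions, with Id1 overlapping it in CM, Bmpr1a and Acvr2a lie higher in CM, and 1 NonCM library of Bmp5 is at 0, beyond the left edge of the log axis.

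Whether genotype acted differently in the fractions was tested as an interaction in the same joint fit. It was called for 1 of 39 members, Tgfb3, with the larger change in NonCM, where 1.44% of all genes were called (0.336% larger in NonCM and 1.10% smaller). Tgfb3 read 13.9 ± 1.28 and 12.1 ± 0.988 RPM (recovered reads scaled to TMM-scaled library total) in CM control and Wls fl/fl. In NonCM it read 31.5 ± 1.05 and 45.2 ± 2.4 (SD, n = 3). The interaction was 0.76 on the log2 scale (NonCM minus CM, edgeR adjusted p = 0.0306). That call was lost when leaving out CM control replicate 3 (adjusted p = 0.0961), CM Wls fl/fl replicate 3 (0.0844), NonCM control replicate 3 (0.0962), NonCM Wls fl/fl replicate 2 (0.0968) or NonCM Wls fl/fl replicate 3 (0.0981). With replicate 3 of all 4 groups left out, the interaction of Tgfb3 was 0.59 (adjusted p = 0.717), and 0 members and 0.00747% of all genes were called. Tgfbr2, lower in CM and higher in NonCM, gave 0.34 (edgeR adjusted p = 0.0565). Ltbp3 and Ltbp4, called in NonCM only, gave 0.18 and 0.26 and were not called as different between fractions (edgeR adjusted p = 0.481 and 0.155).

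Other genes of the pathway were read from 7 lists with 97 genes in the tables. In NonCM 71 were tested, and 12 rose and 0 fell by limma, where 2.47% of all genes rose and 2.03% fell. The median change was 0.16 against 0.02 over all genes. EdgeR called 16 higher and 3 lower, where it called 5.73% and 5.16% of all genes. The same shares over all genes apply to the counts of each list. The calls fell in 3 of the lists. Of the 10 genes listed under activation of latent TGF beta, which include the matrix anchor Fbn1, 4 rose. Fbn1 (fibrillin 1), to which latent complexes bind, rose from 3328 ± 349 to 5389 ± 78 (0.70, limma adjusted p = 0.00153). Bmp1, a protease that cleaves procollagen and latent binding proteins, rose from 636.5 ± 54.4 to 877 ± 45.2 (0.46, limma adjusted p = 0.0126). Itgb8, a subunit of an integrin that activates latent TGF beta, rose by 0.54 (limma adjusted p = 0.0303). The other of the 4, Itgav (0.28, limma adjusted p = 0.036), was named after its values were seen. Of 12 tested antagonists and modulators, 2 rose, Fstl1, a secreted follistatin-like glycoprotein (3455 ± 173 to 5261 ± 67.1, 0.61, limma adjusted p = 8.7e-04), and Nbl1, a BMP antagonist of the DAN family (0.44, limma adjusted p = 0.0219).

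Of 18 tested genes often used as TGF beta targets, 6 rose in NonCM and 0 fell by limma. Fn1 (fibronectin) rose from 3482 ± 104 to 6419 ± 114 (0.88, SE 0.04, limma adjusted p = 9.8e-05). The collagen genes Col3a1 and Col1a2 rose by 0.65 and 0.60 (limma adjusted p = 6.4e-04 and 8.7e-04). The other 3, named after their values were seen, were Col1a1 (0.65), Postn (0.75) and Timp1 (1.47). Of the 18, 16 had a change above 0 (88.9%, against 53.2% of all genes) and 2, Ctgf and Acta2, below. Ctgf, a matricellular protein gene, and Acta2, the smooth muscle actin gene of myofibroblasts and mural cells, were also named after their values were seen. Ctgf lay lower in each Wls fl/fl library (−0.30, limma adjusted p = 0.114, edgeR adjusted p = 0.0202), and so did Acta2 (−0.25, limma adjusted p = 0.073, edgeR adjusted p = 0.0159). Col1a1, Col1a2, Col3a1 and Postn stand on both the target and the fibroblast marker lists, so those 4 cannot be read apart from the higher fibroblast share. That summed share counts their own reads, so its rise is in part theirs. In NonCM control Col3a1, Col1a1, Col1a2 and Postn read 3269, 1474, 1089 and 227 RPM on average. In NonCM Wls fl/fl libraries they read 5125, 2303, 1651 and 376.

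**Figure D4:**
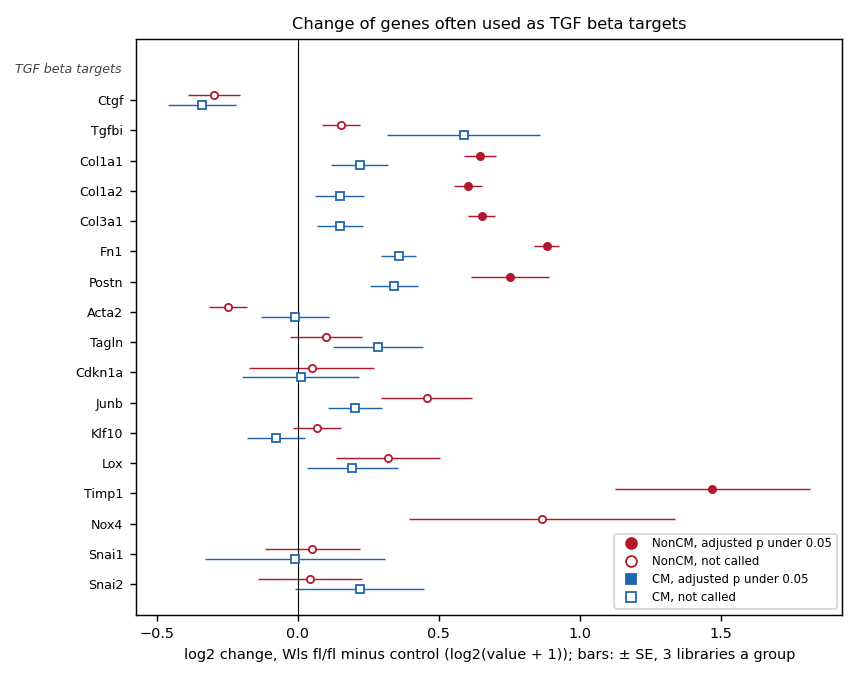
The log2 change (Wls fl/fl minus control, horizontal axis) of genes often used as TGF beta targets, with 1 gene left out, for NonCM (red circles) and CM (blue squares), with bars of ± 1 SE over 3 libraries a group and filled points for a limma adjusted p under 0.05. In NonCM 6 points are filled, all above 0, while Ctgf and Acta2 lie below 0.

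The remaining lists had no limma call in NonCM. Of 6 tested genes often used as BMP targets, 0 were called by limma or edgeR and 1 had an unadjusted p under 0.05. That was Hey1, also a Notch target, which read 141 ± 5.72 in control against 119 ± 1.68 in Wls fl/fl libraries (−0.24, limma adjusted p = 0.182). Of the 14 intracellular regulators, limma called 0, edgeR called 1 and 3 had an unadjusted p under 0.05. Tab1, the partner of the kinase TAK1, differed by −0.30 (limma adjusted p = 0.0918). Further receptors (7 tested) and ligands (4 tested) had 0 limma calls and 2 and 1 genes at an unadjusted p under 0.05. Among them were Hfe2 (hemojuvelin), a BMP co-receptor of muscle, at −0.21 (limma adjusted p = 0.076, edgeR adjusted p = 0.0289), and the ligand Lefty1, at 0.86 (limma adjusted p = 0.258).

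Without any single library Fn1, Col3a1, Col1a1, Col1a2, Fbn1 and Fstl1 kept their limma calls in NonCM. Bmp1 and Postn lost theirs when control replicate 3 or Wls fl/fl replicate 2 or 3 was left out (adjusted p of 0.0562, 0.0846 and 0.101 for Bmp1, and 0.0902, 0.117 and 0.13 for Postn). For Nbl1 this held for Wls fl/fl replicates 2 and 3 (adjusted p = 0.129 and 0.151). Itgb8, Itgav and Timp1 lost theirs without control replicate 3 (0.109, 0.121 and 0.0975) or without Wls fl/fl replicate 1 (0.0923, 0.118 and 0.158), 2 (0.147, 0.131 and 0.238) or 3 (0.183, 0.173 and 0.174). Some were also lost under other settings. Itgav missed the threshold by limma under TMM scaling (adjusted p = 0.0537) and upper-quartile scaling (0.0581) and by DESeq2 (0.0643), and Itgb8 by DESeq2 (adjusted p = 0.123). Timp1 missed it by limma under TMM scaling (adjusted p = 0.0542), with no filter (0.0822) and with a pseudocount of 0.5 (0.0524), and DESeq2 gave it no adjusted p. Without replicate 3 of both genotypes limma called 0 of the 71 and edgeR called 1, Fn1 (0.88, edgeR adjusted p = 0.0124).

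In CM, 60 of the 97 were tested and limma and edgeR called 0, with 4 higher and 4 lower at an unadjusted p under 0.05. Of all CM genes, limma called 0.0921%, and 4.91% were higher and 3.83% lower at an unadjusted p under 0.05. DESeq2 called 1, Fn1, which read 570 in control against 730 in Wls fl/fl libraries on average (0.36, limma adjusted p = 0.0682, DESeq2 adjusted p = 0.0382). The smallest p of the other lists belonged to Hfe2 (0.20), Fstl1 (0.15), Itgb5 (−0.17), Map3k7 (−0.15), Hey1 (0.16) and Inha (0.38), with limma adjusted p from 0.424 to 0.801.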

How the data were processed

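RNA-seq libraries of CM and NonCM fractions from control and Wls fl/fl hearts were used, 3 in each of 4 groups, matched to tables by the library numbers in the titles. The submitters' processing notes name STAR, DESeq2 and mm10, while for the counting tool, the annotation and the use of strand nothing is given in the sources used here. Each deposited table holds a signal per library, the read count divided by the authors' size factor, with the 2 tables scaled apart. All values (100%) were whole multiples of 1 read within 0.01 reads, so reads were recovered. Per the file headers, the authors also give log2 fold changes with SEs, a test statistic (a score, not used here), and p-values and adjusted p-values.

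The test was limma 3.58.1 (R 4.3.3, lmFit, eBayes with trend), fitted within a fraction to log2(value + 1) for all genes whose mean was 10 or more, as Wls fl/fl minus control and with Benjamini-Hochberg adjustment over all genes tested and a threshold of 0.05. Adding 1 shrinks changes of genes with few reads. In NonCM the limma change of such genes was still larger than that of edgeR for Gdf10 and Timp1, and smaller for Ltbp2. For Smad9 and Bambi the sign differed between limma and edgeR. Fractions were compared by an edgeR 4.0.16 quasi-likelihood fit (TMM) of recovered reads from 12 libraries. Alternatives were other scalings, filters and pseudocounts, recovered reads fitted by edgeR, by limma-voom and by DESeq2 1.42.0, and fits leaving out each library in turn or replicate 3. The edgeR fit without replicate 3 was chosen after seeing the data. Code was tested on simulated counts.

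The 40 genes, the further lists and the tests were chosen with earlier results of these data known. Values in every library are given for called members, the 3 TGF beta ligands and the member of smallest p of each role in each fraction. Of the further lists, up to 3 called genes are named, or else the one of smallest p, and names outside this rule are marked. Some genes are not reported here. Positions are from GENCODE M21 and promoters from RefSeq, with no conversion between builds. Depth ranged from 1160146 to 10281214 recovered reads.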

Additional observations from a re-analysis of the deposited data

Results flagged for a closer look

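The effect of genotype differed between the fractions for 7 of the 111 members and further list genes tested by the edgeR interaction, given as NonCM minus CM on the log2 scale. Of all genes 1.44% were called, 0.336% larger in NonCM and 1.10% smaller. They were Tgfb3 at 0.761 (adjusted p = 0.0306), Fn1 at 0.516 (0.0281), Bmp1 at 0.569 (0.0306), Fstl1 at 0.448 (0.0306), Fbn1 at 0.489 (0.0458), Col3a1 at 0.485 (0.0325) and Hfe2 at −0.405 (0.0326). Of the 7, 6 were larger in NonCM. Hfe2 was lower in each NonCM Wls fl/fl library and higher in each CM Wls fl/fl library than in the controls. In control hearts it was lower in NonCM than in CM (−0.863 on the log2 scale, edgeR adjusted p = 8.5e-10). With replicate 3 of all 4 groups left out no gene of the 7 was called, at an edgeR adjusted p of 0.717 for each, with values from 0.363 for Fbn1 to 0.596 for Bmp1 among the 6 and −0.393 for Hfe2. In NonCM the fibroblast marker share was 0.935 ± 0.0108% in control against 1.42 ± 0.0577% in Wls fl/fl libraries (SD, n = 3), and in CM 0.11 ± 0.00582% and 0.119 ± 0.0141%. Col3a1 is itself on the fibroblast marker list. The cardiomyocyte marker share was 7.27 ± 0.327% in control against 6.15 ± 0.0977% in Wls fl/fl libraries of NonCM. In CM it was 10.7 ± 0.0721% and 10.8 ± 0.62%. The part of either share in these differences was not tested.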

How the results depend on the processing

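No called value changed sign under any alternative run. The 3 NonCM member calls became 9 by edgeR and 9 by limma-voom, which called 10.9% and 11.1% of all genes. They became 0 without replicate 3 of both genotypes by limma (0% of all genes) or edgeR (0.203%). At an adjusted p under 0.1 there were 8, and the share of all genes there was not counted. With 1 library left out the count ranged from 0 (without Wls fl/fl replicate 2 or 3) to 9 (without the shallow control replicate 1). Over those fits the share of all genes called ran from 0.550% to 12.2%. The 12 calls of the further lists in NonCM became 19 by edgeR, 19 by limma-voom, 0 by limma and 1 by edgeR without replicate 3 of both genotypes, and 6 to 22 with 1 library left out. The shares of all genes given for the member calls apply to these fits too. In CM the 0 member calls held under each alternative, and the 0 calls of the further lists became 1 with no filter and 1 by DESeq2, and 0 to 1 with 1 library left out (1 without CM control replicate 1). The 1 interaction call became 2 by limma-voom, which called 2.39% of all genes against 1.44% in the main fit. It became 0 without replicate 3 of all 4 groups (0.00747% of all genes). There were 2 under upper-quartile scaling, 2 at a mean of 50 or more and 0 to 2 when 1 library was left out. For these fits the share of all genes was not counted. The 29 members that differed between the fractions of control hearts ranged from 25 to 31. No paired analysis was possible because the labels do not say which CM and NonCM libraries share a heart, and the genotypes share no animal. Smad9, Bmp7, Gdf10, Bmp5 and Mstn rest on 2 reads or fewer in NonCM control replicate 1, which limits what can be seen of them.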
